A study of Homo sapiens with 6 samples.

Results

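The clathrin-coated pit genes described here are 41 genes of 25680 in each library, taken by symbol: the clathrin coat, its AP2 adaptor, other adaptors, initiators, membrane benders, dynamins, and the proteins that strip the coat off again. A coated pit begins where initiator proteins and AP2 gather on the inositol lipid PIP2 at the plasma membrane and pick up cargo receptors. Clathrin triskelia, made of heavy and light chains, polymerise over the patch, proteins with curved lipid-binding domains bend it, and dynamin cuts the neck. Synaptojanins then hydrolyse PIP2, and auxilins recruit the chaperone HSPA8 to take the coat apart. In cultured tumour lines this route carries transferrin and lipoprotein receptors and many growth factor receptors into the cell.

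RNA-seq was made from U87 cells, an established human glioblastoma line, labelled wild type and grown in DMEM with fetal bovine serum. All cells had received 500 nM of the rhodamine-tagged cyclic peptide EPP6 for 1 h before they were detached and sorted by rhodamine fluorescence. High uptake is the brightest 30% of cells and low uptake the dimmest 30%, with 3 libraries each, numbered 2, 3 and 4. The stated purpose was to find proteins involved in the entry of cyclic peptides. No untreated cells stand beside the 2 groups. Nothing in the labels says that the libraries came from separate cultures, so a p-value here measures the spread between these libraries, which may be technical.

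Library totals lay between 13712263 counts (high replicate 3) and 40742857 counts (high replicate 2). At that depth all 41 clathrin-coated pit genes passed the filter on low counts, as did 14598 genes in all. Of the glioma markers, VIM stood between 11291 and 12619 TPM (a transcript level corrected for gene length and library depth), and CD44 and TNC were also abundant, while GFAP stayed at or under 0.562 TPM and SOX2 and S100B were at or near 0. The glioma markers summed to 13217 to 14019 TPM in high uptake and 12390 to 12870 TPM in low uptake, and none of the 7 tested was called. Among them CHI3L1 (log2 fold change 0.99, adjusted p = 0.089), TNC (0.27, adjusted p = 0.0743) and CD44 (0.16, adjusted p = 0.23) were higher in every high library, and OLIG2 (-0.46, adjusted p = 0.32) was lower in every one. In alternative fits below, 2 of the 7 were called higher with the GC trend removed, 2 with a replicate block and 1 with DESeq2. Of all genes tested in these fits, 17.8%, 21.8% and 5.99% were called. The part of these markers in the results below was not tested. Epithelial markers summed to 1.57 to 1.67 TPM in high uptake and 1.72 to 1.87 TPM in low uptake, and immune and endothelial markers to under 1 TPM in every library. Neuronal markers summed to 31.5 to 39.8 TPM in high uptake, against 20.6 to 24.8 TPM in low uptake, most of it SNAP25, a vesicle fusion protein that rose in high uptake (log2 fold change 0.80, SE 0.14, edgeR quasi-likelihood adjusted p = 0.00987). The neuronal nuclear marker RBFOX3 stayed at or under 0.601 TPM. RBFOX3 (log2 fold change 0.24, edgeR adjusted p = 0.818) and the neuronal marker SYT1 (0.13, edgeR adjusted p = 0.648) overlapped between the groups. In RNA from sorted pools, more RNA per cell and more cells that hold a transcript cannot be told apart.

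The genes of the route differed far more from each other in level than between the sorted groups. By mean TPM over the 6 libraries, 10 of the 41 reached 100 TPM, 23 lay from 10 to under 100, 5 from 1 to under 10 and 3 under 1. AP2M1, the AP2 subunit that reads tyrosine-based sorting signals, led with 1510 TPM, ahead of the light chain CLTA at 558 TPM, the small AP2 subunit AP2S1 at 429 TPM and the heavy chain CLTC at 283 TPM. The stonin STON1 at 0.644 TPM, the brain-enriched endophilin SH3GL2 at 0.464 TPM and the initiator FCHO1 at 0.38 TPM closed the order. In the FCHO pair the more widely expressed FCHO2 held 96.2% ± 2.32 of the TPM in high uptake and 95.5% ± 1.6 in low uptake (SD, n = 3 each). Among the dynamins, DNM1, the form known from neurons, held 37.8% ± 0.218 of dynamin TPM in high uptake and 37.5% ± 0.49 in low uptake.

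**Figure D1:**
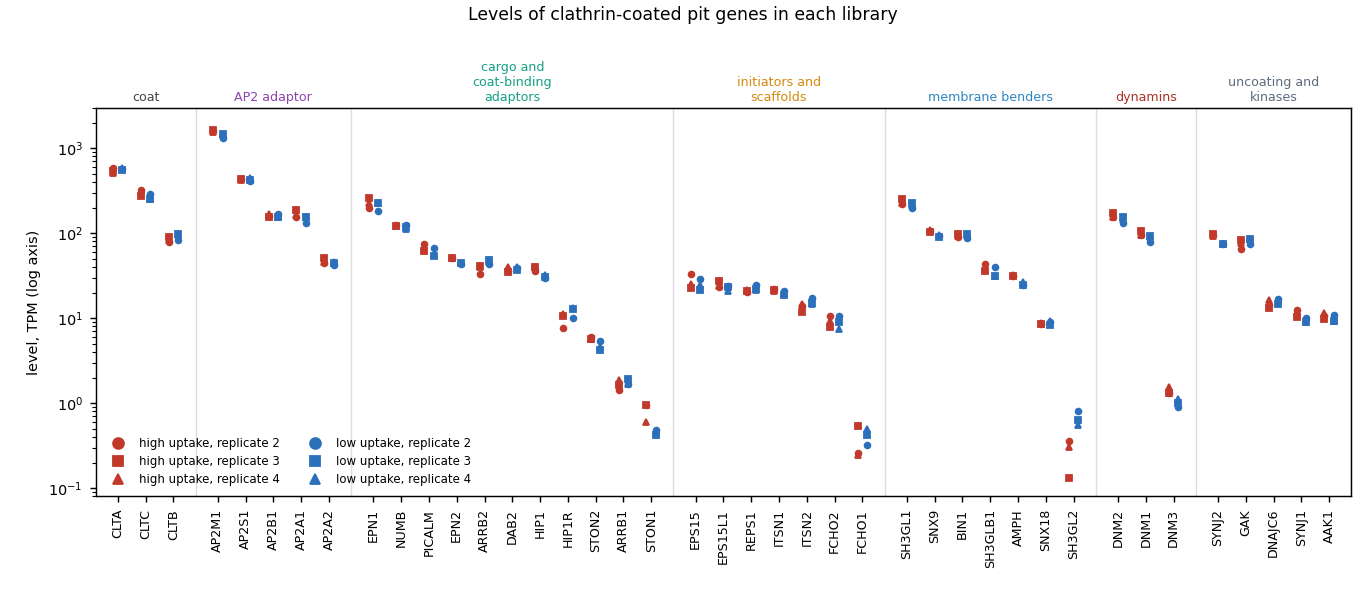
Level of each clathrin-coated pit gene in each library, in TPM on a log axis, with genes grouped by role and ordered by mean level within a role. Red symbols are the 3 high-uptake libraries and blue symbols the 3 low-uptake libraries. Levels run from 1657 TPM for AP2M1 to 0.132 TPM for SH3GL2, and for most genes the red and blue symbols lie close together.

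SYNJ2, the broadly expressed synaptojanin that dephosphorylates PIP2, rose in high uptake and was the only one of the 41 genes to pass the threshold (adjusted p under 0.05) in the edgeR quasi-likelihood test. That is 2.44% of the genes of the route, against 4.29% of all 14598 tested genes, where 3.03% were higher and 1.26% lower. The median log2 fold change of the 41 was 0.08, beside -0.00 over all tested genes, with 24 estimates above 0 and 17 below. At an unadjusted p under 0.05 there were 11 genes (26.8%, against 18.4% of all tested, 10.4% higher and 7.97% lower): STON1, STON2, HIP1, AMPH, SNX9, DNM3, SYNJ1 and SYNJ2 on the higher side and ARRB2, ITSN2 and SH3GL2 on the lower side. The groups did not overlap in CPM (counts scaled to library depth by TMM, with no correction for length) for 15 of the 41 (36.6%), against 24.4% of all tested genes, 13.0% higher and 11.4% lower. Of these 15, 10 were higher and 5 lower in high uptake, and the remaining 26 genes overlapped.

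The 41 genes had more counts than most tested genes. Their median CPM was 87.3, beside 24.9 over all tested genes, and the median SE of their log2 fold changes was 0.094, beside 0.113. For 36 of the 41 the 95% interval of the fold change lay within 1.5-fold either way. The same held for 10658 of all 14598 tested genes. The intervals of STON1, SH3GL2, FCHO1, DNM3 and HIP1R reached further. For the others of the 41 without a call, the interval therefore bounds the difference within 1.5-fold. For any gene, a missed threshold does not show equal levels.

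The libraries also differed in how counts depended on GC content. The log2 difference between genes with at least 58.1% GC and genes with at most 40.9% GC was -0.229, 0.318 and -0.0548 in high replicates 2, 3 and 4, and -0.313, 0.17 and 0.109 in low replicates 2, 3 and 4. This trend did not separate the groups. In both groups it was lowest in replicate 2 and highest in replicate 3. With the trend of each library removed, edgeR called 16 of the 41 genes (39.0%), 10 higher and 6 lower, against 2504 of 14097 genes with a GC value (17.8%, 10.3% higher and 7.51% lower). The 16 were SYNJ2, HIP1, AMPH, SYNJ1, SNX9, CLTC, AP2A1, PICALM, EPN2 and STON1 on the higher side, and ARRB2, ITSN2, GAK, CLTB, HIP1R and SH3GL2 on the lower side. The fold changes themselves hardly moved, as the plot of both estimates shows, and every value below is from the test without this step unless it says otherwise.

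All 3 high libraries also favoured long genes more than all 3 low ones: the log2 difference between the longest and shortest genes, in bins of equal size, was 0.0999, 0.0182 and 0.076 in high replicates 2, 3 and 4, and 0.0159, -0.113 and -0.0968 in low replicates 2, 3 and 4. TPM does not remove such a trend. With the length trend of each library removed, edgeR called none of the 41 genes, against 3.47% of all tested genes. An unadjusted p under 0.05 was found for 11 of the 41, as many as without this step.

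**Figure D2:**
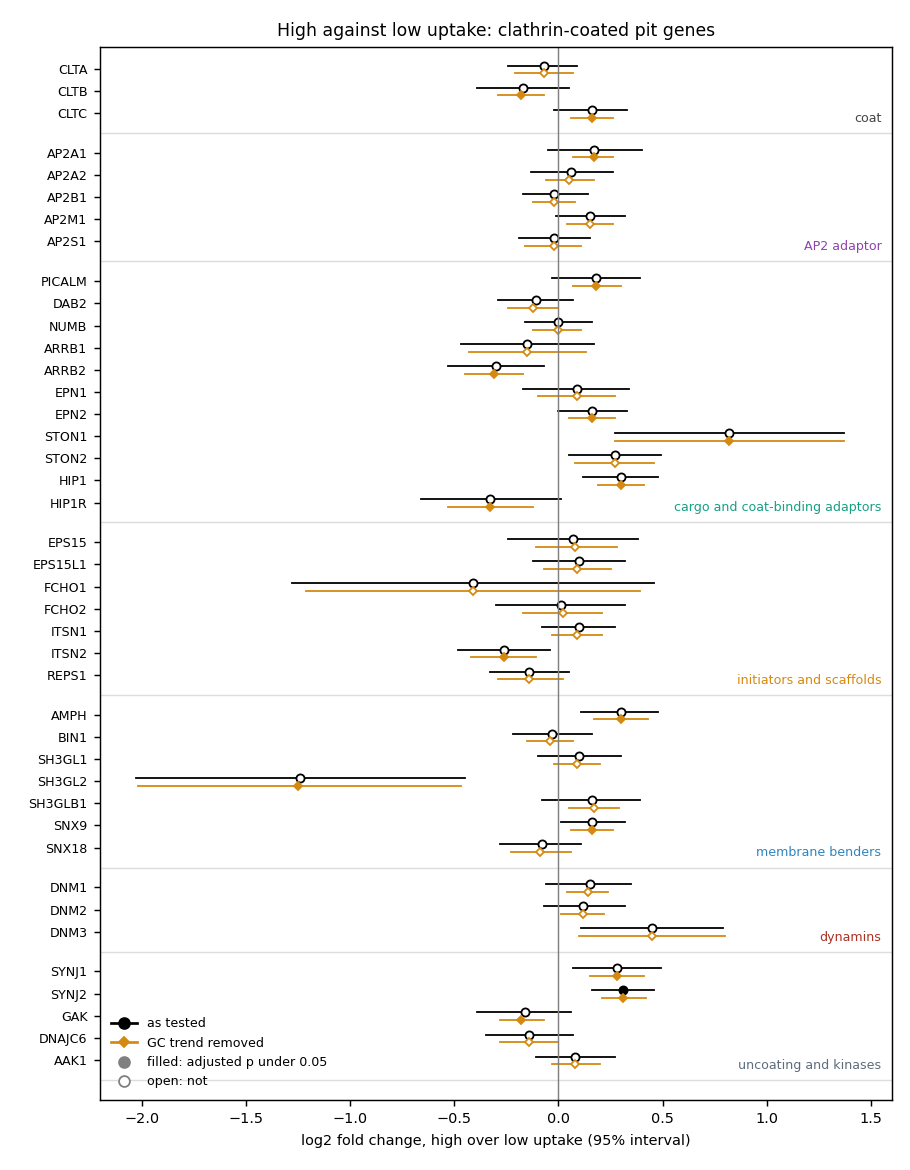
Log2 fold change of high over low uptake for each clathrin-coated pit gene with its 95% interval, grouped by role. Black circles are the estimates as tested and orange diamonds those with the GC trend of each library removed. Filled symbols have an adjusted p under 0.05: as tested SYNJ2 at 0.31 is the only one, and with the GC trend removed there are 16, at almost the same fold changes but with narrower intervals for well-counted genes.

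In the coat, none of the 3 genes passed the test, and the heavy and light chain estimates had opposite signs. CLTC, the heavy chain that forms the legs of the triskelion, had 1121, 982 and 1060 CPM in high replicates 2, 3 and 4, and 1023, 900 and 914 CPM in low replicates 2, 3 and 4. The groups overlapped, since high replicate 3 lay under low replicate 2, and the log2 fold change was 0.16 (SE 0.0795, adjusted p = 0.33). CLTA, the light chain that holds most of the light chain transcripts, averaged 277 ± 20.1 CPM in high-uptake libraries and 292 ± 7.95 CPM in low-uptake libraries (log2 fold change -0.07, 95% interval -0.24 to 0.09). CLTB, the other light chain, averaged 60.3 ± 4.82 CPM in high-uptake libraries and 67.9 ± 6.83 CPM in low-uptake libraries (log2 fold change -0.17, SE 0.0996, adjusted p = 0.391). CLTC and CLTB were both called once the GC trend was removed, at adjusted p = 0.0293 and 0.0304, in opposite directions. The gene models differ in length, 8587 bp for CLTC, 1236 bp for CLTA and 1767 bp for CLTB, and with the length trend removed the log2 fold changes were 0.086 (adjusted p = 0.622), -0.015 (0.959) and -0.13 (0.512).

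In TPM, heavy chain over summed light chain TPM was 0.481, 0.436 and 0.512 in high replicates 2, 3 and 4, and 0.446, 0.385 and 0.376 in low replicates 2, 3 and 4. The means were 0.476 ± 0.038 in high uptake and 0.402 ± 0.0379 in low uptake, and the groups overlapped. The ratio still carries the length trend of each library, and its part was not tested. CLTA held 86.8% ± 1.38 of light chain TPM in high uptake and 86% ± 1.22 in low uptake, so the makeup of the light chain pool differed by less than the spread between replicates.

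The AP2 adaptor, the tetramer that links clathrin to cargo and membrane, had no gene past the threshold. In CPM 1 of its 5 genes was without overlap, beside 24.4% of all tested genes. AP2M1 had 1265, 1327 and 1216 CPM in high replicates 2, 3 and 4, and 1050, 1212 and 1164 CPM in low replicates 2, 3 and 4. All high libraries stood above all low ones, by a narrow margin of 1216 against 1212 CPM at the nearest, and the log2 fold change was 0.15 (SE 0.076, adjusted p = 0.319). The large alpha subunit AP2A1 averaged 241 ± 26.4 CPM in high-uptake libraries and 214 ± 22.4 CPM in low-uptake libraries (log2 fold change 0.17, SE 0.101, adjusted p = 0.392, and 0.0231 with the GC trend removed). Its second form AP2A2 had a log2 fold change of 0.06. The beta subunit AP2B1 and the small subunit AP2S1 both had -0.02, with fold changes of 0.99 (95% interval 0.89 to 1.1) and 0.986 (0.878 to 1.11). The subunits were not tested against each other. Summed TPM of the 5 genes was 2416 ± 66.6 in high uptake and 2186 ± 104 in low uptake, most of it AP2M1.

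Among the 11 cargo and coat-binding adaptors the estimates split 6 above and 5 below 0, with none past the threshold. HIP1, which binds clathrin light chain, had 119, 134 and 127 CPM in high replicates 2, 3 and 4, and 96.5, 104 and 108 CPM in low replicates 2, 3 and 4. The groups were clear of each other, and the log2 fold change was 0.30 (SE 0.0823, 95% interval 0.12 to 0.48, adjusted p = 0.0672). It was the adaptor nearest the threshold: DESeq2 gave it an adjusted p of 0.0296, and removing the GC trend 0.00115. With the length trend removed its log2 fold change was 0.23 (adjusted p = 0.193), and with 1 library left out its adjusted p lay between 0.077 and 0.186.

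HIP1R, its paralog with the same domain plan, lay on the other side. It had 14.1, 19.8 and 20.1 CPM in high replicates 2, 3 and 4, and 18.5, 24.3 and 24.5 CPM in low replicates 2, 3 and 4. Both libraries numbered 2 were the lowest of their group, so the groups overlapped, and the log2 fold change was -0.33 (SE 0.154, adjusted p = 0.293). Removing the GC trend gave an adjusted p of 0.0294 at the same fold change; its longest transcript has 62.7% GC, against a median of 48.3% over tested genes.

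ARRB2, the beta-arrestin that brings activated G protein-coupled receptors to pits, had 27.4, 34.1 and 32.6 CPM in high replicates 2, 3 and 4, and 35.8, 41.2 and 38.7 CPM in low replicates 2, 3 and 4. Every high library was below every low one (log2 fold change -0.30, SE 0.105, adjusted p = 0.142, and 0.00446 with the GC trend removed). Its paralog ARRB1 was sparse, at 4.99 ± 0.627 CPM in high-uptake libraries and 5.54 ± 0.526 CPM in low-uptake libraries, and the share of ARRB2 in beta-arrestin TPM overlapped between the groups.

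The stonins, which bind AP2, were both higher in every high library. STON2 had 32.2, 30.7 and 30 CPM in high replicates 2, 3 and 4, and 28.5, 23 and 25.3 CPM in low replicates 2, 3 and 4 (log2 fold change 0.27, SE 0.101, adjusted p = 0.169). The gene model of STON2 is 13046 bp, and with the length trend removed the log2 fold change was 0.16 (adjusted p = 0.407). STON1 rested on few reads: 88, 30 and 45 counts in high replicates 2, 3 and 4, against 43, 22 and 22 counts in low replicates 2, 3 and 4. Scaled to depth these were 2.18, 2.23 and 1.35 CPM in high uptake, and 1.11, 1 and 1.08 CPM in low uptake (log2 fold change 0.82, SE 0.252, adjusted p = 0.0995). High replicate 4 stood closest to low uptake, and without it the adjusted p was 0.0482. In GENCODE v29 (GRCh38) 29.1% of the exon bases of STON1 are shared on the same strand with the readthrough gene STON1-GTF2A1L, so its reads may be split between both symbols.

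The other adaptors differed less. PICALM, which binds PIP2 and retrieves vesicle SNAREs, averaged 120 ± 10.4 CPM in high-uptake libraries and 106 ± 10.7 CPM in low-uptake libraries (log2 fold change 0.18, adjusted p = 0.359, and 0.033 with the GC trend removed). EPN1, the most abundant of these adaptors, averaged 305 ± 44.2 CPM in high-uptake libraries and 287 ± 38 CPM in low-uptake libraries, and its log2 fold change of 0.09 had the wide interval -0.17 to 0.34. The second epsin, EPN2, averaged 100 ± 2.75 CPM in high-uptake libraries and 89.5 ± 2.54 CPM in low-uptake libraries without overlap (log2 fold change 0.16, SE 0.0754, adjusted p = 0.284, and 0.0443 with the GC trend removed). In the GENCODE v29 annotation 19.5% of the exon bases of EPN2 also lie under a gene on the opposite strand. DAB2, an adaptor of lipoprotein receptors and integrins, had a log2 fold change of -0.11 (95% interval -0.29 to 0.07). NUMB, an endocytic adaptor of Notch and integrins, averaged 180 ± 4.81 CPM in high-uptake libraries and 180 ± 7.95 CPM in low-uptake libraries, and its fold change of 0.998 was bounded at 0.893 and 1.12.

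The initiators and scaffolds, which mark the site before clathrin arrives, had the median log2 fold change nearest to 0 of the 7 roles, 0.01 over 7 genes, and none past the threshold. EPS15, the most abundant by TPM, averaged 59.7 ± 12.1 CPM in high-uptake libraries and 56.9 ± 8.04 CPM in low-uptake libraries (log2 fold change 0.07, SE 0.142, 95% interval -0.24 to 0.38, adjusted p = 0.847). The libraries numbered 2 were the highest of each group, with 73.4 CPM in high replicate 2 and 65 CPM in low replicate 2 above all others. EPS15L1 had a log2 fold change of 0.10 (95% interval -0.12 to 0.32) and the membrane-bending initiator FCHO2 one of 0.01 (-0.30 to 0.32). FCHO1, with 0.473 ± 0.233 CPM in high-uptake libraries and 0.572 ± 0.123 CPM in low-uptake libraries, was too sparse for a useful interval (-1.28 to 0.46).

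The intersectins, large scaffolds that join EPS15 and epsins to dynamin and actin regulators, leaned apart. ITSN2 had 37.7, 32.5 and 39.2 CPM in high replicates 2, 3 and 4, and 47.4, 42.4 and 41.5 CPM in low replicates 2, 3 and 4. All high libraries were below all low ones (log2 fold change -0.26, SE 0.0994, adjusted p = 0.188, and 0.0225 with the GC trend removed). ITSN1 averaged 69.3 ± 2.08 CPM in high-uptake libraries and 64.9 ± 1.98 CPM in low-uptake libraries (log2 fold change 0.10, 95% interval -0.08 to 0.27, and 0.031 with the length trend removed). REPS1, an EPS15-related scaffold, averaged 34.3 ± 0.73 CPM in high-uptake libraries and 37.8 ± 2 CPM in low-uptake libraries, without overlap (log2 fold change -0.14, adjusted p = 0.42).

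The membrane benders carry BAR domains, curved dimers that bind bent membrane, and recruit dynamin. AMPH, amphiphysin, had 44.1, 44.2 and 43.7 CPM in high replicates 2, 3 and 4, and 34.5, 35.2 and 37.9 CPM in low replicates 2, 3 and 4. The high libraries were almost equal to each other and clear of the low ones (log2 fold change 0.30, SE 0.0838, 95% interval 0.11 to 0.48, adjusted p = 0.0753, and 0.00439 with the GC trend removed). AMPH, like SNAP25, is best known from nerve terminals. The neuronal marker sum, most of it SNAP25, was also higher in every high library, while SYT1 and RBFOX3 overlapped between the groups. The part of this sum in the AMPH difference was not tested. BIN1, the more widely expressed amphiphysin, averaged 103 ± 6.63 CPM in high-uptake libraries and 106 ± 7.51 CPM in low-uptake libraries (log2 fold change -0.03, 95% interval -0.22 to 0.16).

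SNX9, which binds dynamin and drives its assembly at the neck, had 186, 183 and 189 CPM in high replicates 2, 3 and 4, and 163, 165 and 171 CPM in low replicates 2, 3 and 4. The groups were apart by a small but even margin (log2 fold change 0.16, SE 0.0706, adjusted p = 0.242, and 0.0251 with the GC trend removed). Its relative SNX18 averaged 23.3 ± 0.0662 CPM in high-uptake libraries and 24.7 ± 1.24 CPM in low-uptake libraries, a log2 fold change of -0.08 with no overlap only by the width of 23.4 against 23.5 CPM.

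Of the endophilins, which bend necks and recruit synaptojanin, SH3GL1 was the most abundant bender and overlapped, at 241 ± 21.4 CPM in high-uptake libraries and 225 ± 18.9 CPM in low-uptake libraries (log2 fold change 0.10, 95% interval -0.10 to 0.30). SH3GLB1, a form also known from mitochondria and autophagy, averaged 103 ± 9.43 CPM in high-uptake libraries and 92.7 ± 12.3 CPM in low-uptake libraries (log2 fold change 0.16, adjusted p = 0.475). SH3GL2 had 16, 2 and 11 counts in high replicates 2, 3 and 4, against 35, 16 and 13 counts in low replicates 2, 3 and 4. Its estimate was the most negative of the 41 genes (log2 fold change -1.24, SE 0.361, 95% interval -2.03 to -0.45, adjusted p = 0.0824). In CPM the groups did not overlap, but SH3GL2 made up 0.0982% ± 0.047 of endophilin TPM in high uptake and 0.27% ± 0.062 in low uptake, a small part of the family in either group.

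All 3 dynamin estimates were above 0 and none passed the test. DNM2, the ubiquitous form and the most abundant, averaged 249 ± 18.7 CPM in high-uptake libraries and 229 ± 21.9 CPM in low-uptake libraries (log2 fold change 0.12, SE 0.09, adjusted p = 0.513). DNM1 averaged 164 ± 13.6 CPM in high-uptake libraries and 148 ± 14.3 CPM in low-uptake libraries (log2 fold change 0.15, SE 0.094, adjusted p = 0.447). In both, replicate 3 was the highest library of its group, at 271 CPM in high-uptake libraries and 249 CPM in low-uptake libraries for DNM2.

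DNM3, a sparse form known from neurons and testis, had 4.38, 4.45 and 5.01 CPM in high replicates 2, 3 and 4, and 3, 3.41 and 3.86 CPM in low replicates 2, 3 and 4. The groups did not overlap (log2 fold change 0.45, SE 0.155, 95% interval 0.11 to 0.79, adjusted p = 0.14). It held 0.535% ± 0.0667 of dynamin TPM in high uptake and 0.434% ± 0.0404 in low uptake. The part of the neuronal marker sum, whose rise rests on SNAP25, in the DNM3 difference was not tested.

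The proteins that end the cycle held the called gene. SYNJ2 had 11716, 4060 and 9445 counts in high replicates 2, 3 and 4, against 8994, 5198 and 4801 counts in low replicates 2, 3 and 4. Scaled to depth these were 290, 301 and 283 CPM in high uptake, and 233, 236 and 235 CPM in low uptake. The low libraries were almost equal, and the lowest high library stood well above them. Over all tested genes, low replicates 3 and 4 were the most alike pair of libraries within a group. Their chi-square per degree of freedom was 2.4, against 12 to 20.5 for the other pairs within a group. The part of this likeness in the spread of the low group was not tested. SYNJ2 averaged 292 ± 9.04 CPM in high-uptake libraries and 235 ± 1.77 CPM in low-uptake libraries, a fold change of 1.24 (95% interval 1.12 to 1.38; log2 0.31, SE 0.0688, edgeR adjusted p = 0.0277).

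The call on SYNJ2 was near the threshold. Leaving out 1 library at a time, the adjusted p was 0.0742 for high replicate 2, 0.0685 for high replicate 4, 0.0588 for low replicate 2, 0.109 for low replicate 3 and 0.141 for low replicate 4. The gene model of SYNJ2 is 7564 bp, and with the length trend removed its log2 fold change was 0.25 and its adjusted p 0.0889.

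SYNJ1, the synaptojanin of nerve terminals, had 36.4, 30.7 and 34.2 CPM in high replicates 2, 3 and 4, and 29.4, 27.2 and 27 CPM in low replicates 2, 3 and 4. It lay apart in the same direction as SYNJ2 at a similar ratio (log2 fold change 0.28, SE 0.0951, adjusted p = 0.131, and 0.00621 with the GC trend removed). SYNJ2 accordingly held 89.2% ± 1.06 of synaptojanin TPM in high uptake and 88.9% ± 0.534 in low uptake, and the makeup of the pair overlapped. The coat-stripping cofactors were estimated on the other side. GAK, the ubiquitous cyclin G-associated auxilin, averaged 138 ± 17.3 CPM in high-uptake libraries and 155 ± 14.1 CPM in low-uptake libraries (log2 fold change -0.16, SE 0.104, adjusted p = 0.443, and 0.0204 with the GC trend removed). DNAJC6, the auxilin of nerve terminals, averaged 37.4 ± 3.51 CPM in high-uptake libraries and 41.4 ± 2.34 CPM in low-uptake libraries (log2 fold change -0.14, adjusted p = 0.471). AAK1, the kinase that phosphorylates AP2M1 and raises its affinity for cargo, had a log2 fold change of 0.08 (95% interval -0.11 to 0.27), and of -0.077 with the length trend removed.

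**Figure D3:**
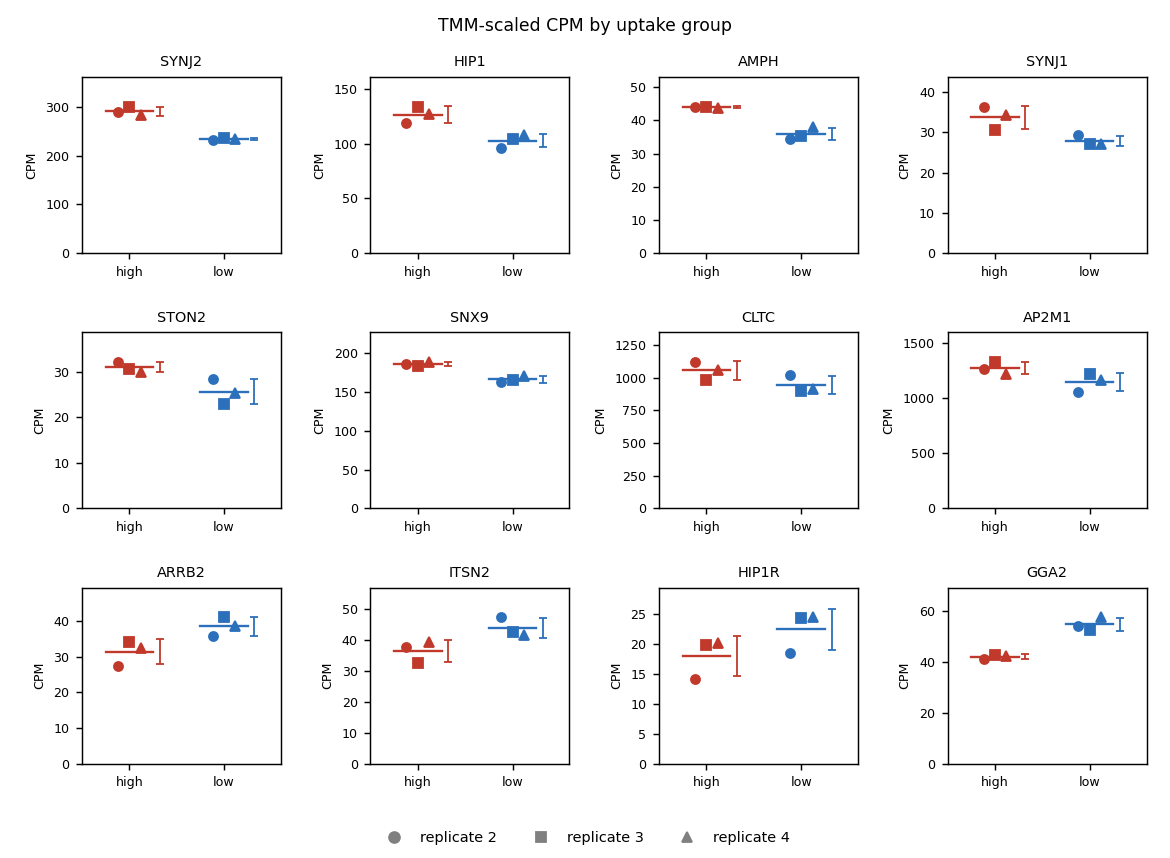
TMM-scaled CPM in each library for 11 clathrin-coated pit genes and for GGA2, high uptake on the left and low uptake on the right of each panel, on axes that start at 0. Lines are group means and bars 1 SD, with n = 3. SYNJ2 averaged 292 CPM in high-uptake libraries and 235 CPM in low-uptake libraries; CLTC and HIP1R overlap between the groups, and the other panels do not.

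Between paralogs, the share of a family held by each gene showed which pairs leaned apart. HIP1 made up 82.4%, 79% and 77.9% of HIP1 and HIP1R TPM in high replicates 2, 3 and 4, and 74.3%, 70.4% and 71% in low replicates 2, 3 and 4. The shares did not overlap, with means of 79.8% ± 2.36 in high uptake and 71.9% ± 2.14 in low uptake. ITSN1 held 61.7% ± 2.72 of intersectin TPM in high uptake and 55.7% ± 1.16 in low uptake. AMPH held 25.2% ± 1.12 of the amphiphysin pair in high uptake and 21.2% ± 1.14 in low uptake. SNX9 held 92.5% ± 0.119 of its pair in high uptake and 91.3% ± 0.288 in low uptake, and AP2A1 held 78.2% ± 0.501 of the alpha subunits in high uptake and 76.9% ± 0.88 in low uptake. None of these 4 overlapped either. The shares are described and not tested, and with 3 libraries against 3 the smallest exact permutation p would be 0.1. The shares also still carry the length trend of each library, and its part was not tested. No shares were taken for other paralog pairs. For single genes, the groups did not overlap in CPM for 24.4% of all tested genes. STON1 held 12.5% ± 2.66 of the stonin pair in high uptake and 8.81% ± 0.461 in low uptake, also without overlap, with the reservation on its reads given above. Epsins, EPS15 proteins, FCHO proteins, beta-arrestins, synaptojanins and auxilins had shares that overlapped between the groups.

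**Figure D4:**
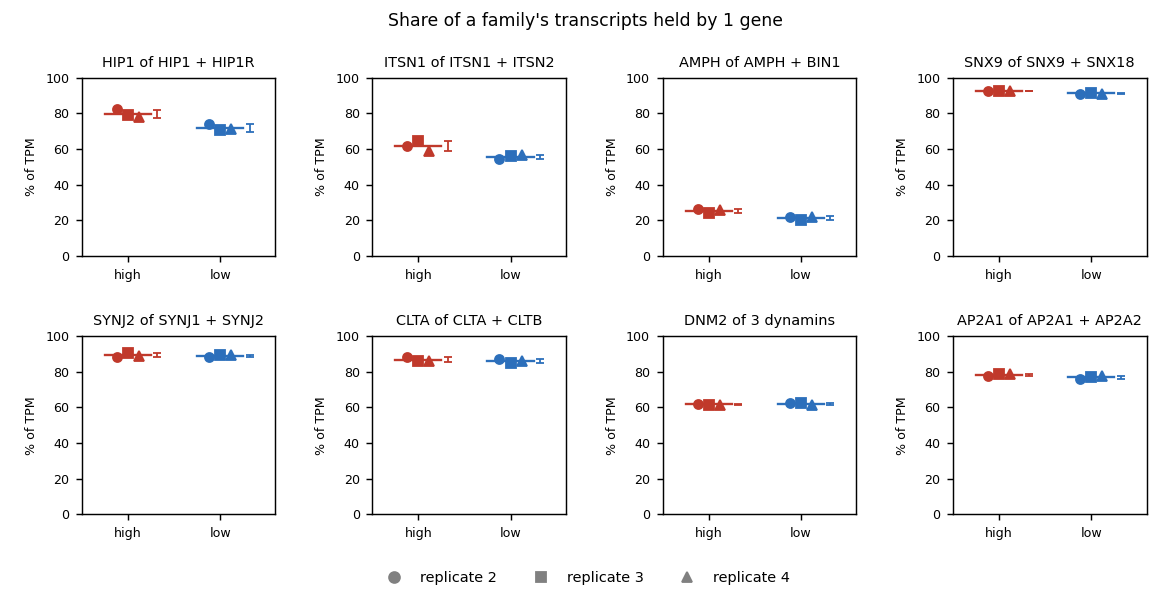
Share of a family's TPM held by 1 gene in each library, in percent, for 8 families, high uptake on the left and low uptake on the right of each panel. Lines are group means and bars 1 SD, with n = 3. The HIP1 panel shows the widest gap, 79.8% in high uptake and 71.9% in low uptake, while the SYNJ2, CLTA and DNM2 panels overlap.

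The same comparison was made for 45 other genes of clathrin traffic, of which 38 were tested, 27 at the plasma membrane and 11 at the trans-Golgi network and endosomes. Of the 38, 1 passed the threshold (2.63%, against 4.29% of all tested genes). This was GGA2, which sorts mannose 6-phosphate receptors into clathrin carriers at the trans-Golgi network, and it fell. GGA2 had 41, 42.9 and 42.5 CPM in high replicates 2, 3 and 4, and 54, 52.6 and 57.7 CPM in low replicates 2, 3 and 4. The groups stood well apart (log2 fold change -0.38, SE 0.0832, 95% interval -0.56 to -0.20, edgeR adjusted p = 0.0277). Leaving out 1 library at a time ended the call for high replicate 2 (adjusted p = 0.0864), high replicate 4 (0.101), low replicate 3 (0.0781) and low replicate 4 (0.162). Its paralogs GGA1 and GGA3 had log2 fold changes of -0.10 and -0.14, at adjusted p = 0.682 and 0.517.

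Some other genes of the list touch the same steps as SYNJ2, and none of them was called as tested. HSPA8, the chaperone that uncoats vesicles, averaged 2615 ± 5.84 CPM in high-uptake libraries and 2992 ± 135 CPM in low-uptake libraries, without overlap (log2 fold change -0.19, SE 0.0658, adjusted p = 0.134). PIP5K1C, a kinase that makes the PIP2 that synaptojanins hydrolyse, averaged 126 ± 14.8 CPM in high-uptake libraries and 101 ± 12 CPM in low-uptake libraries (log2 fold change 0.32, SE 0.109, adjusted p = 0.138). INPP5B, another inositol lipid phosphatase, averaged 15.3 ± 0.825 CPM in high-uptake libraries and 12.3 ± 1.42 CPM in low-uptake libraries (log2 fold change 0.30, SE 0.114, adjusted p = 0.176). OCRL, its relative on coated vesicles, had a log2 fold change of 0.04 with the interval -0.14 to 0.23. INPPL1, also on this list, had 0.03 with the interval -0.19 to 0.25. PIP5K1A, a kinase of the same kind as PIP5K1C and more abundant by TPM, was estimated on the other side (log2 fold change -0.08, SE 0.0876, adjusted p = 0.71). HSPA8 and PIP5K1C were called with the GC trend removed, and INPP5B with both libraries numbered 2 left out. These genes were chosen for mention after their values were seen. The second heavy chain gene CLTCL1 was present at 10.3 ± 0.659 TPM in high uptake and 9.21 ± 0.793 TPM in low uptake, far under CLTC.

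The authors' deposited list of 2305 gene symbols, which carries no values, holds 12 of the 41 genes (29.3%), against 15.8% of all tested genes. Of the symbols on the authors' deposited list, 97.4% had an unadjusted p under 0.05 in the edgeR test used here. The 12 are the 11 genes with an unadjusted p under 0.05 and HIP1R, so the authors' deposited list is wider than the adjusted calls, where SYNJ2 is the single one of the 41.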

How the data were processed

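Total RNA from 6 sorted libraries was sequenced after a directional library kit, per the labels' protocols. Tools named in the submitters' processing notes are fastp, STAR and featureCounts, with genome build hg19. Their versions, the annotation and the strand setting were not given in the sources used here. Per the file headers, the authors deposited whole-number counts for each gene symbol. The authors also deposited FPKM and TPM, per the file headers: TPM served for levels and shares, and FPKM only to recover gene-model lengths, which were the same in all libraries to within 7.80e-07 bp.

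Counts of 14598 of 25680 genes passed edgeR's filterByExpr (minimum count 10, minimum total 15). They were tested with edgeR 4.0.16 in R 4.3.3 (TMM, quasi-likelihood F-test, robust, no covariate, two-sided) and adjusted by Benjamini-Hochberg over all tested genes at 0.05. SE is the log2 fold change divided by the square root of F. The common biological coefficient of variation was 0.099. CPM values are TMM-scaled. GC content came from the longest GENCODE v29 transcript per symbol, and GC and length trends were removed as offsets from a spline with 5 degrees of freedom per library. Alternatives were other scalings, filters, DESeq2 1.42.0, limma 3.58.1 voom, a replicate block, the 2 trends and left-out libraries. The test scripts were run on simulated data whose biological coefficient of variation was set under the one found here. That run does not show how the tests perform at the spread of these libraries.

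The 41 genes, their roles and the other lists were chosen with earlier results of these data known. All 41 are accounted for. The rule for values in the text took the smallest p and the highest TPM in each role, any gene past the threshold in the test or an alternative, and other clathrin genes past the threshold.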

Additional observations from a re-analysis of the deposited data

How the results depend on the processing

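SYNJ2 kept its direction in all 18 alternatives, and 32 of the 41 genes kept theirs wherever they were fitted; 3 of these, STON1, SH3GL2 and FCHO1, could not be fitted under the filter of 50 counts in 3 libraries. The count of called clathrin-coated pit genes was 2 with no filter, with DESeq2 and with both libraries numbered 2 left out (SYNJ2 and HIP1 each time), 16 with the GC trend removed and 0 with the length trend removed (edgeR; 11 at an unadjusted p under 0.05). The shares of all tested genes called were 4.31%, 5.99%, 5.51%, 17.8% and 3.47% in these 5 alternatives, in that order. Leaving out 1 library gave 0 to 1 (7 to 14 at an unadjusted p under 0.05), the 1 being SYNJ2 without high replicate 3 and STON1 without high replicate 4. For other clathrin-route genes the count was 5 with the GC trend removed, 2 with both libraries numbered 2 left out and 0 to 1 with 1 library left out (3 to 9 at an unadjusted p under 0.05). Over all tested genes 626 were called, 2504 with the GC trend removed, where 57.7% of calls were higher against 70.6% as tested. Leaving out 1 library gave 232 to 738: 232 without low replicate 4, 276 without low replicate 3, 282 without high replicate 2 and 379 without high replicate 4. The causes were not tested. In each fit with 1 library left out, a lower share of the 41 was called than of all tested genes. The same held for the other clathrin-route genes. At an unadjusted p, no share of all tested genes was taken in these fits, so the unadjusted counts have no such comparison. With the replicate block 20 of the 41 genes (those called with the GC trend removed, and AP2M1, STON2, SH3GLB1 and DNM3), 7 other clathrin-route genes and 3176 of all genes were called, and with the GC trend removed and the block together 23 (adding DNM1, DNM2 and DNAJC6), 10 and 4031 (21.8% and 28.6% of all genes). HSPA8, PIP5K1C and INPP5B were among the 7. Libraries numbered 2, 3 and 4 had correlations of 0.4516, 0.3045 and 0.0873 in their deviations from group means. Every high library correlated best with the low library of its own number, and low replicates 2 and 3 with the high library of theirs. For high replicate 4 the margin was narrow (0.0873, against 0.0524 with low replicate 3). Low replicate 4 correlated best with high replicate 3 (0.2156). For this reason the numbers were not taken as pairs, and whether they mark pairs is not known. The GC trend given above put the numbers in the same order in both groups. The count of calls depends on whether the numbers are taken as pairs.

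Signs turned for 9 genes, all at absolute log2 fold changes of at most 0.0857 as tested. Under single left-out libraries the ranges were -0.023 to 0.11 for AP2A2, -0.035 to 0.013 for AP2B1, -0.066 to 0.025 for AP2S1, -0.032 to 0.029 for NUMB, -0.042 to 0.18 for EPN1, -0.11 to 0.18 for EPS15, -0.12 to 0.14 for FCHO2 and -0.095 to 0.015 for BIN1. With both libraries numbered 2 left out AP2B1 had 0.024 and NUMB 0.015, and with no filter NUMB had 0.000. FCHO2 had -0.009 with upper quartile scaling, -0.018 with total count scaling and -0.023 with the length trend removed, where AP2S1 had 0.039 and AAK1 -0.077. Low counts limit STON1, SH3GL2 and FCHO1, whose intervals were the widest.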
